A study of Mus musculus with 4 samples.

Results

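Long noncoding RNA (lncRNA) genes held 2190 of the 54716 m6A peaks listed for obese mouse inguinal fat, 1301 of 31856 in the entacapone list and 889 of 22860 in the vehicle list. A peak was counted when its midpoint lay in the span of a gene that RefSeq (assembly GRCm38.p6, called mm10) types as lncRNA and in no protein-coding span, and it was given to the shortest lncRNA span that held it. The peaks lay in 852 lncRNA genes, led over both lists by Airn, an imprinted antisense RNA, with 15 entacapone and 9 vehicle peaks. The entacapone list held more lncRNA peaks, 1.46 times the vehicle number (95% counting interval 1.34 to 1.60), next to 1.39 times (1.37 to 1.42) for all peaks. Peaks found in both libraries were wider than peaks of 1 list alone. The medians for lncRNA peaks were 134.5 against 88 bp in the entacapone list and 127.5 against 85 bp in the vehicle list. All peaks showed the same, with 152 against 85 bp and 133 against 80 bp.

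The tissue was the inguinal white fat pad of C57BL/6 males, 23 weeks old and made obese by a high fat diet, treated with entacapone or with vehicle. Entacapone is a drug for Parkinson's disease that is also described as an inhibitor of FTO, an RNA demethylase. There was 1 m6A immunoprecipitate (IP) and 1 input library per treatment, so no difference given here has a replicate check, no p-value is given, and intervals cover counting error only. The labels give neither the number of animals behind a library nor the dose and length of treatment. The input libraries held 33164576 gene-assigned counts for entacapone and 24548212 for vehicle; the depth of the IP libraries is not known. The input counts carry gene identifiers that the tables used here do not pair with names, so the RNA level of each lncRNA was not read, and a peak absent from a list does not show an RNA without m6A. In bulk tissue, fewer cells of a type and less RNA per cell cannot be told apart. Of 7 adipocyte markers, 5 carried a peak in each list (Lep, Plin1, Cidec, Pparg and Retn), next to 49.0% and 40.2% of all protein-coding genes. Peaks lay in 3 entacapone and 2 vehicle of 4 lymph node markers, 1 and 2 of 4 muscle markers, 3 and 2 of 3 epithelial, 2 and 0 of 2 endothelial, and 0 and 1 of 2 macrophage markers; their part in the results was not tested.

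N6-methyladenosine (m6A) is a methyl mark on adenosines inside RNA, written by the METTL3 and METTL14 complex at a short consensus that often reads GGAC, removed by FTO and ALKBH5, and read by YTH domain proteins. In coding RNAs it is known for lying near the stop codon. LncRNAs are transcripts without a known protein product that can act in the nucleus on chromatin, as antisense silencers, as scaffolds of nuclear bodies, or as hosts of snoRNAs and miRNAs. XIST and MALAT1 carry m6A in human cells.

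Some of the peaks lay at the start of a lncRNA, where RefSeq gives the sequence from 250 bases before a start to 50 bases after it. Such start windows were held for 670 of the 852 genes, covering 1038 entacapone and 691 vehicle peaks. Of these, 38 entacapone peaks in 37 genes (3.66%, exact 95% interval 2.60 to 4.99) and 19 vehicle peaks in 18 genes (2.75%, 1.66 to 4.26) reached into a start window of their own gene. An overlap of 1 base was enough, so such a peak need not cover the start itself. In 8 windows at least 50 bases lay under a peak of both lists. The 5 windows below show these stretches for Ino80dos (chr1:63114221-63114520, plus strand), A430035B10Rik (chr6:8509112-8509411, minus), A930005H10Rik (chr3:115888010-115888309, minus), Gm31965 (chr19:56154855-56155154, plus) and Meg3 (chr12:109545148-109545447, plus). They are RefSeq sequence of GRCm38.p6, 5′ to 3′ on the strand of the gene, and capitals mark the bases under a peak of both lists, with deposited starts read as counting from 0, which could move an edge by 1 base.
Ino80dos: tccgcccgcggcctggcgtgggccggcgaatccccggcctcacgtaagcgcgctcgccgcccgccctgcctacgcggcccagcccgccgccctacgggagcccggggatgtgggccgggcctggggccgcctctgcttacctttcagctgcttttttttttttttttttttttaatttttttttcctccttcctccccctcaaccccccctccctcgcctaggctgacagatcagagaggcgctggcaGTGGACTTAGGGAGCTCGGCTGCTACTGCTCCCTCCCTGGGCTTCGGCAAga
A430035B10Rik: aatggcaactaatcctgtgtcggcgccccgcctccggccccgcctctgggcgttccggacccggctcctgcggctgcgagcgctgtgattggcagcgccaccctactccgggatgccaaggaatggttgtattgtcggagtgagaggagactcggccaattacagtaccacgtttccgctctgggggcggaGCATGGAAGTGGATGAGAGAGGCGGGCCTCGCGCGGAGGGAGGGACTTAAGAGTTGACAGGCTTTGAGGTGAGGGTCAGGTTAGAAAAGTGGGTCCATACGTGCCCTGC
A930005H10Rik: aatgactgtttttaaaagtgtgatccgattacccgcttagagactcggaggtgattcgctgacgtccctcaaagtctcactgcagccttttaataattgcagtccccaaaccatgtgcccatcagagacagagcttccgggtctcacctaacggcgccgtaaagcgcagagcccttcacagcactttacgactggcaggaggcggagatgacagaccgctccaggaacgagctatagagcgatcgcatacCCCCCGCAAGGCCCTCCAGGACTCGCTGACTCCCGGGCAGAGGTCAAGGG
Gm31965: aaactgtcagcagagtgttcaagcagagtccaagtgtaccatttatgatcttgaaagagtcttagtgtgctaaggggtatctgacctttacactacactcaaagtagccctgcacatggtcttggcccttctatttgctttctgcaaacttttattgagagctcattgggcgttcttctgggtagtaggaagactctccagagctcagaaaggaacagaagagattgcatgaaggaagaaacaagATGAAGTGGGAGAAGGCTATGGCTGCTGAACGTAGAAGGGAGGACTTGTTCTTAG
Meg3: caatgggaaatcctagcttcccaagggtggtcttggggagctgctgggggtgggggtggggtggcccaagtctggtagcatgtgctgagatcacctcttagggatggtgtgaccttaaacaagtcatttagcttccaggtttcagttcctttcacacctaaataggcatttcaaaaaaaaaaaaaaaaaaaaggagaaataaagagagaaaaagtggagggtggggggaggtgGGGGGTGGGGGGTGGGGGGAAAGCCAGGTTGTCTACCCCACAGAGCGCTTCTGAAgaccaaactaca

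The motif GGACN with A, C or T as its last base, an m6A consensus, was searched on both strands. The stretch in capitals held 1 match on the gene's strand, read GGACT, in each of Ino80dos, A430035B10Rik, A930005H10Rik and Gm31965, and 0 in Meg3. The 3 windows not printed (A130051J06Rik, Gm30058 and Gm33841) held 0 there as well, so 4 of the 8 had a match under peaks of both lists. On the other strand these stretches held 1 match in A430035B10Rik, 1 in Gm30058 and 0 in the other 6. Over the whole 300 bases, a match on the gene's strand was found in 28 of 44 windows under a lncRNA peak (63.6%), in 58.0% of the 11588 lncRNA windows and in 60.2% of all 32851 windows. On the other strand of the whole windows the shares were 63.6%, 57.0% and 60.4%. The Ino80dos peak over its start had a fold of 5.32 in the entacapone list (63114468 to 63114522) and 4.43 in the vehicle list (63114468 to 63114518), where fold is the authors' enrichment value for a peak and describes peaks within its list. Ino80dos is named for lying opposite to Ino80d, and all 3 of its peaks in each list were shared. In A430035B10Rik the single peak had a fold of 4.11 in the entacapone list (8509072 to 8509223) and 5.41 in the vehicle list (8509045 to 8509220). The Meg3 peak lay over an internal RefSeq start 4.41 kb from the 5′ end of the span, where the entacapone fold was 2.64 and the vehicle fold 3.004.

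Airn, the paternally expressed RNA that silences Igf2r on the same chromosome, carried the most peaks in the entacapone list and in the sum of both, and tied with 4933406I18Rik at 9 in the vehicle list. Counting only peaks with a fold of at least 4, 4933406I18Rik led with 11 entacapone and 7 vehicle peaks, against 8 and 7 in Airn. Its span on chromosome 17 (12741311 to 12859884, 118.574 kb, plus strand) overlaps Igf2r at its 5′ end and Mas1 at its 3′ end, and peaks there were left out, which lowered the count from 18 to 15 in the entacapone list and from 11 to 9 in the vehicle list. Between 73 and 89 kb from the 5′ end lay 12 of the 15 entacapone and 8 of the 9 vehicle peaks. All 9 vehicle peaks in Airn overlapped an entacapone peak, whereas 6 of the 15 entacapone peaks overlapped none. The shared Airn peak of largest entacapone fold lay at 12815271 to 12815425 (fold 9.24) and met a vehicle peak at 12815293 to 12815387 (fold 3.43). The shared peak of largest vehicle fold lay at 12799990 to 12800162 in the entacapone list (fold 8.16) and at 12799995 to 12800069 in the vehicle list (fold 7.37).

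**Figure D1:**
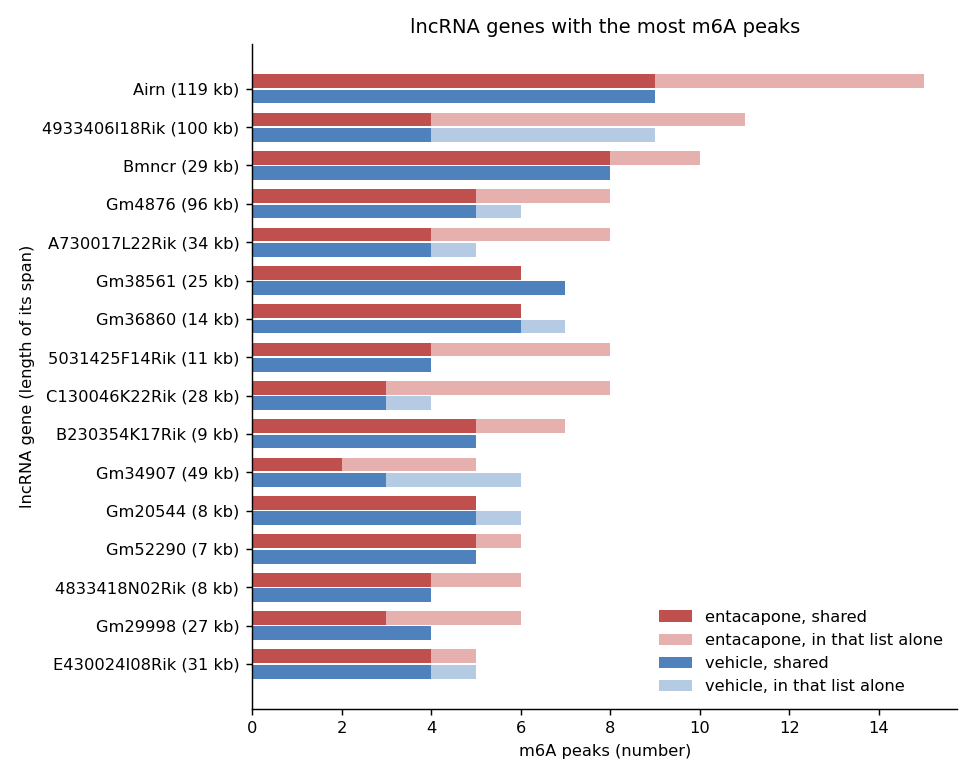
Number of m6A peaks (x axis) in the 16 lncRNA genes with the most peaks over both lists, each with the length of its span. Upper red bars are the entacapone list and lower blue bars the vehicle list; dark parts are peaks that overlap a peak of the other list by at least 1 bp. Airn has 15 entacapone and 9 vehicle peaks, and 4933406I18Rik has 11 and 9.

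The other genes with many peaks were mostly unnamed transcripts. 4933406I18Rik (chromosome 7, 114315479 to 114415161) had 11 entacapone and 9 vehicle peaks, of which 4 in each list were shared. Its other peaks lay at different places in the 2 libraries, with folds of 4.08 to 7.14 in the entacapone list and 3.56 to 6.24 in the vehicle list over all its peaks. Bmncr, a lncRNA described in bone marrow mesenchymal stem cells whose nearest coding genes are Prelp and Fmod (chromosome 1, 133977281 to 134006449), had 10 and 8 peaks. All 8 vehicle peaks of Bmncr were shared, and the 2 further entacapone peaks had folds of 3.11 and 2.81. Gm4876 had 8 entacapone and 6 vehicle peaks with 5 shared, and A730017L22Rik 8 and 5 with 4 shared.

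Among the next genes, Gm38561 had 6 entacapone and 7 vehicle peaks, all shared, and Gm36860 had 6 and 7, with 6 shared in each list. A second lncRNA span also holds every Gm36860 peak, and they were counted for the shorter span. The Gm38561 peaks (X chromosome) lay 1.65 to 4.32 kb beyond the 3′ end of the protein-coding gene Car5b. 5031425F14Rik had 8 entacapone and 4 vehicle peaks, C130046K22Rik 8 and 4, and B230354K17Rik 7 and 5. All 4 vehicle peaks of 5031425F14Rik were shared. Its entacapone peak of largest fold (10.7, 166448287 to 166448516 on chromosome 2) met a vehicle peak of fold 5.60, and each fold describes peaks within its own list. Per length of span, B230354K17Rik held 8.03 entacapone and 5.74 vehicle peaks per 10 kb, 5031425F14Rik 7.07 and 3.53, and Airn 1.27 and 0.759. Genes with fewer peaks could be denser, such as Gm34934, whose 5 and 3 peaks made 13.0 and 7.81 per 10 kb. Over the 69.1 kb of Airn outside protein-coding spans, where a peak could be counted, it held 2.17 and 1.30 per 10 kb.

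**Figure D2:**
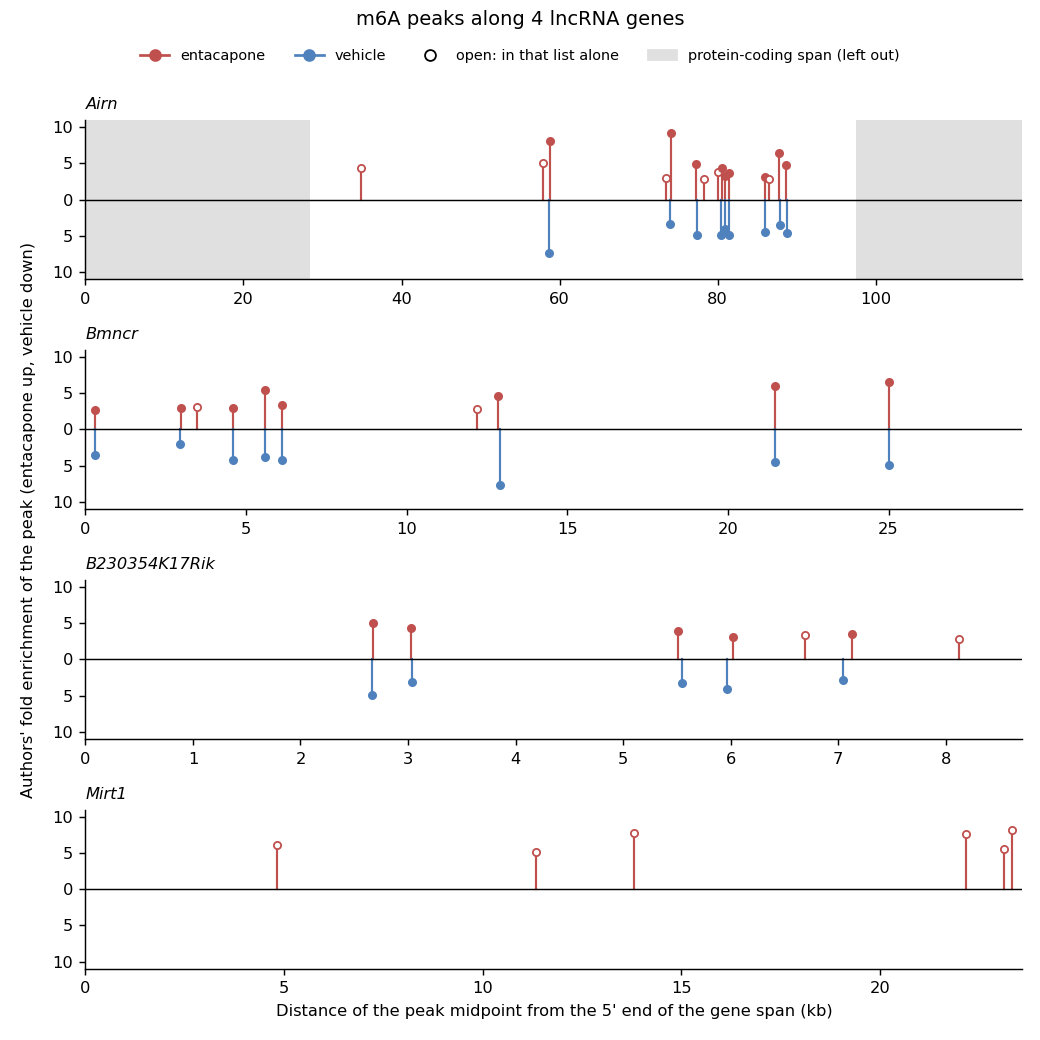
Authors' fold enrichment (y axis, entacapone upward and vehicle downward) of each m6A peak against the distance of its midpoint from the 5′ end of the gene span in kb (x axis) for Airn, Bmncr, B230354K17Rik and Mirt1. Filled points are shared peaks, open points lie in that list alone, and grey blocks are protein-coding spans, where peaks were left out; Mirt1 has 6 entacapone peaks and no vehicle peak.

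Peaks were spread thinly over genes. Of the 755 genes with an entacapone peak, 450 (59.6%) had a single one and 29 (3.84%) had 5 or more; of the 550 genes with a vehicle peak, 363 (66.0%) had a single one and 18 (3.27%) had 5 or more. The 10 genes with the most peaks held 6.69% of the entacapone and 7.65% of the vehicle lncRNA peaks. Of the 12731 annotated lncRNA genes, 5.93% carried an entacapone peak and 4.32% a vehicle peak. Of all 852 genes with a peak, 454 had more entacapone peaks, 150 had more vehicle peaks and 248 had equal numbers. Among the 39 genes with 8 or more peaks over both lists, 21 had more in the entacapone list, 9 had more in the vehicle list and 9 were equal. The entacapone list held 1.39 times as many peaks of all kinds, and these gene counts were not adjusted for it. Protein-coding genes were not counted in this way. Of them, 2468 had entacapone but no vehicle peaks and 536 had vehicle but no entacapone peaks.

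Genes with peaks were better annotated than lncRNA genes at large. A curated RefSeq transcript (NR accession) was held by 460 of the 852 genes (54.0%, exact 95% interval 50.6 to 57.4), against 24.1% (23.3 to 24.8) of the 11879 lncRNA genes without a peak. By symbol, 487 of the 852 were predicted Gm genes, 245 were RIKEN clones and 35 were named as opposite-strand (os) transcripts. Of all 12731 annotated lncRNA genes, 10127 were Gm genes, 1788 RIKEN clones and 212 os transcripts. Gm genes thus made up a smaller share of the genes with a peak, and RIKEN clones and os transcripts a larger one. The median span of the 852 genes was 9.99 kb, and that of genes without a peak was 8.29 kb.

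In all, 453 lncRNA genes carried a peak in both lists, out of 755 genes with an entacapone peak and 550 genes with a vehicle peak (82.4% of these 550). For protein-coding genes, 77.0% of the genes with an entacapone peak and 93.9% of those with a vehicle peak were in both lists. A further 302 lncRNA genes had entacapone but no vehicle peaks, and 97 had vehicle but no entacapone peaks; 247 (81.8%) and 88 (90.7%) of these had a single peak. Of the 453 genes in both lists, 421 had at least 1 overlapping pair of peaks, 32 had peaks only at different places, and in 213 every peak of both lists was shared.

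Mirt1, a lncRNA named from myocardial infarction, had the most peaks of any lncRNA gene absent from the other list. It lies on chromosome 19 (53441212 to 53464796, minus strand) and had 6 entacapone peaks with folds of 5.17 to 8.16 and 0 vehicle peaks. Of these 6 Mirt1 peaks, 2 lay within 1 kb of the 3′ end of the span, and the nearest protein-coding gene was at least 50.8 kb away. The span of Mirt1 held 8 entacapone peaks in all, 2 of which were counted for a shorter lncRNA span. Gm38863 and Gm34080 had 4 entacapone peaks each, and A930024E05Rik and A630034I12Rik 3 each, with 0 vehicle peaks. In the vehicle list alone, Gm13387, 1700001L05Rik, Banf2os, Foxd2os and Gm34917 had 2 peaks each. The genes absent from the other list thus reached 6 peaks for entacapone and 2 for vehicle, and the larger size of the entacapone list was not adjusted for.

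Peak sharing in lncRNA genes was below that of the lists as a whole. A vehicle peak was met by 640 of the 1301 entacapone peaks, over at least 1 bp (49.2%, exact 95% interval 46.4 to 51.9), against 55.9% of all entacapone peaks. An entacapone peak was met by 640 of the 889 vehicle peaks (72.0%, 68.9 to 74.9), against 78.7% of all vehicle peaks. The share in protein-coding spans was 57.0% (56.4 to 57.6) of entacapone and 79.5% (79.0 to 80.1) of vehicle peaks, and in no gene span it was 44.6% (42.3 to 46.9) and 71.2% (68.5 to 73.8). The lncRNA intervals do not meet those of protein-coding spans in either list, and they meet those of peaks outside genes in both lists. Peaks of a gene share their library and transcript, which these intervals do not count. When at least 50% of each peak had to be covered by the other, 34.4% of entacapone and 50.3% of vehicle lncRNA peaks were shared, against 42.2% and 58.8% of all peaks.

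The overlapping peaks formed 656 pairs, of which 653 joined lncRNA peaks of the same gene. Their midpoints lay a median of 24 bp apart and they overlapped by a median of 95 bp. The entacapone peak was the wider in 353 pairs, the vehicle peak in 296, and 4 were equal, with a median difference of 8 bp (139 and 130 bp wide at the median). Peaks in 1 list alone numbered 661 for entacapone and 249 for vehicle, 2.65 times as many, next to 2.89 times for all peaks. Of the 661, 291 lay in genes that also had a vehicle peak, and the remaining genes with an entacapone peak, which had no vehicle peak of their own, held 372 entacapone peaks.

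**Figure D3:**
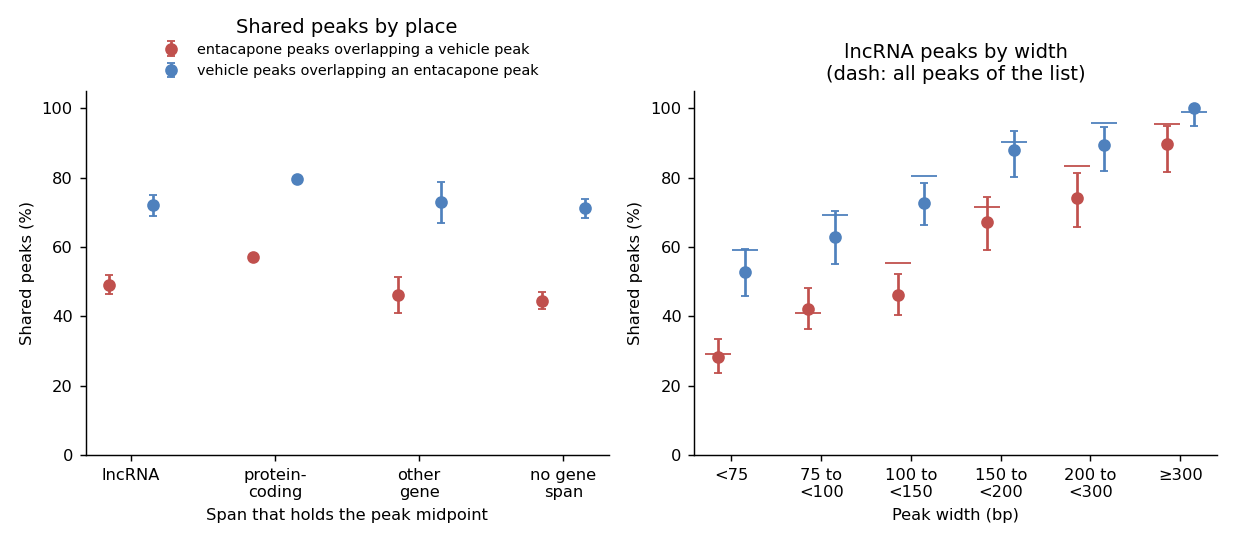
Left, share of peaks (%, y axis) that overlap a peak of the other list, by the span that holds the peak midpoint; right, the same for lncRNA peaks by peak width in bp. Red points are entacapone and blue points vehicle peaks, bars are exact 95% binomial intervals, and dashes at right give all peaks of the list; sharing of lncRNA peaks runs from 28.4% and 52.8% under 75 bp to 89.6% and 100% at 300 bp and over.

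LncRNA peaks were slightly narrower than coding ones. The median width, taken as end minus start, was 103 bp (95% interval 99 to 109) in the entacapone list and 111 bp (104 to 116) in the vehicle list, against 113 bp (112 to 114) and 116 bp (115 to 118) in protein-coding spans. Widths ran from 49 to 770 bp in the entacapone list and from 49 to 898 bp in the vehicle list, and 49 bp was also the smallest width of every other class in both lists. Peaks of at least 200 bp made up 17.4% of entacapone and 19.6% of vehicle lncRNA peaks, against 23.1% and 23.6% in protein-coding spans. The intervals of lncRNA and coding medians do not meet in the entacapone list, and they meet in the vehicle list.

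Width went with sharing. Shared lncRNA peaks had a median of 134.5 bp (128 to 147) in the entacapone list and 127.5 bp (118 to 138) in the vehicle list, while those in 1 list alone had medians of 88 bp (83 to 91) and 85 bp (77 to 91). Over all peaks, the shared medians were 152 and 133 bp and those of 1 list alone 85 and 80 bp. Of the narrowest lncRNA peaks, under 75 bp, 97 of 341 entacapone (28.4%) and 115 of 218 vehicle peaks (52.8%) were shared, next to 29.1% and 59.1% of all peaks of that width. From 100 to under 150 bp the shares were 46.3% and 72.7%, next to 55.5% and 80.6% of all peaks. At 300 bp and over, 86 of 96 entacapone (89.6%) and 70 of 70 vehicle peaks (100%, 94.9 to 100) were shared, next to 95.6% and 99.05% of all peaks. By construction a wider peak has more bases that can meet another.

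**Figure D4:**
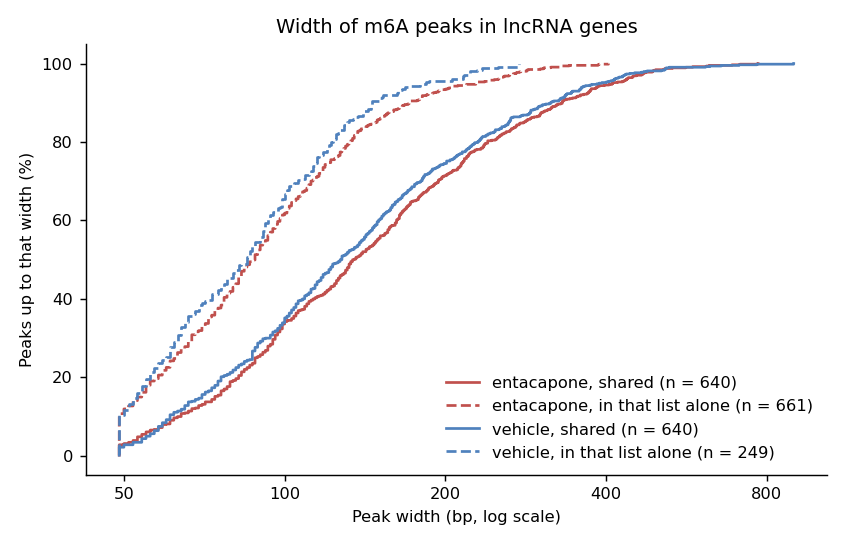
Share of lncRNA peaks up to a given width (y axis, %) against peak width in bp on a log scale (x axis), in red for entacapone and blue for vehicle. Solid lines are shared peaks and dashed lines peaks of 1 list alone; the dashed medians lie at 88 and 85 bp and the solid ones at 134.5 and 127.5 bp.

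The 5 widest lncRNA peaks of each list were all shared. A530072M11Rik on chromosome 4 held the widest entacapone peak, 770 bp (16192337 to 16193107), which overlapped a 709 bp vehicle peak (16192304 to 16193013). Gm5817 on chromosome 17 held the widest vehicle peak, 898 bp (86166560 to 86167458), where the entacapone list had peaks of 186 and 688 bp. Next in the entacapone list came 9130214F15Rik (712 bp), 5430425K12Rik (624 bp) and A230045G11Rik (616 bp). In the vehicle list they were LOC115489488 (766 bp), BC002059 (657 bp) and Gm40733 (625 bp).

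Fold enrichment was higher in lncRNA genes than in coding ones within each list. The median fold was 4.25 in the entacapone and 4.53 in the vehicle list, against 2.95 and 3.21 in protein-coding spans. A fold of at least 4 was reached by 733 entacapone (56.3%) and 577 vehicle lncRNA peaks (64.9%), against 29.6% and 34.9% of all peaks. Peaks outside gene spans had medians of 4.48 and 4.68. Within lncRNA genes, entacapone peaks in that list alone had a median fold of 4.59 (4.44 to 4.63) and shared ones 3.90 (3.76 to 4.11), and vehicle peaks 4.68 (4.47 to 4.94) and 4.48 (4.33 to 4.64).

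The largest folds in the entacapone list were in Dlx6os1, an antisense RNA of the Dlx5 and Dlx6 locus (fold 14.3, 61 bp wide), Gm31639 (13.3), Gm16348 (12.2), Gm30173 (11.9), Gm40685 (11.9) and Gm33318 (11.6). Those of the vehicle list were in Gm31639 (12.6), Gm35545 (12.3), Gm15411 (12.1), Gm13421 (11.99), Gm31965 (11.6) and Gm6117 (11.5). Gm31639 stood in both sets, with overlapping peaks at 7268569 to 7268766 and 7268554 to 7268672 on chromosome 9. Of the 6 entacapone peaks, the Gm16348 one alone did not meet a vehicle peak, and all 6 vehicle peaks met an entacapone peak.

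A list of 61 known lncRNAs was then looked up, of which 57 were typed as lncRNA. Peaks lay in 21 of the 57 in the entacapone list and in 16 in the vehicle list, 14 in both, next to 5.93% and 4.32% of all annotated lncRNA genes. Among the 3319 lncRNA genes with a curated transcript, 412 carried an entacapone and 314 a vehicle peak, a larger share than of all annotated ones. The list was chosen for well-studied genes, and the counts by group below stand beside the same 5.93% and 4.32%. The 14 were Airn, Meg3, Rian, H19, Snhg14, Snhg17, Mir100hg, Dleu2, Tug1, Norad, Oip5os1, Lncpint, Dubr and Carmn. Neat1, Ftx, Snhg11, Snhg18, Mir22hg, Mirt1 and Bvht had entacapone but no vehicle peaks, and Mirg and Epb41l4aos had vehicle but no entacapone peaks. No peak of either list was counted for the other 34, among them Malat1, the abundant speckle RNA, and Xist, the X-inactivation RNA of female cells.

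Imprinted lncRNAs carried 23 entacapone and 16 vehicle peaks, in 5 and 6 of 8 genes, of which Airn held 15 and 9. Meg3, a maternally expressed RNA, had 2 peaks in each list, of which 1 was shared, and Rian, from the same imprinted cluster, had 2 and 1. H19, the maternally expressed RNA beside Igf2, had 1 peak in each list at different places, 142577438 to 142577624 in the entacapone list and 142577967 to 142578079 in the vehicle list. Snhg14, the long host of Prader-Willi snoRNAs, had 3 and 2. Kcnq1ot1 and Peg13 lie wholly inside protein-coding spans and so could have no member; their spans held 3 and 3, and 6 and 7, peaks of the entacapone and vehicle lists.

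Entacapone peaks lay in 1 of 2 nuclear body and 1 of 4 X-linked lncRNAs, and vehicle peaks in none of these 6. Neat1, the scaffold of paraspeckles, had 1 entacapone peak of 52 bp (5832730 to 5832782 on chromosome 19, fold 5.61) and 0 vehicle peaks. Ftx, from the X-inactivation centre, had 2 and 0, while Jpx and Firre had none. Of 14 snoRNA hosts, 3 had an entacapone and 2 a vehicle peak, Snhg17 with 2 shared peaks in each list, and 10, Gas5 among them, had none. The 5 lncRNAs of the Hox clusters on the list had none outside protein-coding spans.

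The remaining 17 lncRNAs of the list held 23 entacapone and 12 vehicle peaks, in 8 and 6 genes. For 9 no peak was counted, among them Pvt1, Miat and Dancr. The span of Trp53cor1, also among these 9, held 1 entacapone and 1 vehicle peak that were not counted for it. Mirt1, described above, held 6 of the entacapone peaks. Tug1, a nuclear lncRNA described in retina and many other tissues (chromosome 11, 3639785 to 3648814), had 5 entacapone and 3 vehicle peaks with 3 shared in each list. Its shared peak at 3646664 to 3646980 had a fold of 2.34 in the entacapone list and met one of fold 4.13 at 3646660 to 3646986 in the vehicle list. Norad, which binds Pumilio proteins, had 2 and 1, Oip5os1, the conserved lncRNA Cyrano, 1 and 1, Lncpint 4 and 3, and Dubr, described in muscle differentiation, 3 and 2. Carmn, a lncRNA of smooth muscle and heart, had 1 and 2, and Bvht, its neighbour, 1 and 0. In Norad a second lncRNA span holds the same peaks, and they were counted for the shorter span.

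LncRNA spans that hold miRNA hairpins were looked at for peaks near the hairpin. In human cells, m6A in primary transcripts is described as a mark for hairpin processing. Of the 852 genes, 18 held 35 annotated hairpins in their spans, no peak counted in these genes overlapped a hairpin, and 7 hairpins lay within 1 kb of a peak. No background share stands beside these counts, and whether hairpins lay closer to peaks than other parts of the spans was not tested. Of the 35, 27 lay on the strand of the lncRNA, 7 on the opposite strand, and for 1, Mir675 in H19, the strand of the gene was not held here. In Mir100hg the Mir125b-1 hairpin (41581926 to 41582002 on chromosome 9) lay 0.899 kb from the nearest entacapone peak and 0.053 kb from a vehicle peak that met no entacapone peak (41582055 to 41582185, fold 7.63). In E130102H24Rik the Mir101a hairpin lay 0.158 kb from an entacapone peak and 0.144 kb from the vehicle peak it met, with folds of 1.65 and 1.96. In A330023F24Rik an entacapone peak (195037232 to 195037340, fold 3.19) lay between Mir29b-2, 0.112 kb away, and Mir29c, 0.207 kb away, and the vehicle list had none in that gene. Mir6363 lies opposite to Dubr, 0.081 kb from an entacapone and 0.064 kb from a vehicle peak. Mir6377 lies opposite to Gm26671, 0.404 kb from a vehicle peak, and Gm26671 had 0 entacapone peaks. In H19, Mir675 lay 0.291 kb from the entacapone peak and 0.82 kb from the vehicle peak. Mature miRNAs of the hairpins in Mir100hg, E130102H24Rik, A330023F24Rik and H19 are given from RefSeq, with the seed (bases 2 to 8) in capitals, to show the products encoded beside these peaks; miR-29b-3p and miR-29c-3p share the seed AGCACCA.
mmu-miR-125b-5p: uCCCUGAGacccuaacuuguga
mmu-miR-101a-3p: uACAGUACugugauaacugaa
mmu-miR-29b-3p: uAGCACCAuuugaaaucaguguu
mmu-miR-29c-3p: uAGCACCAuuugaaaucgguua
mmu-miR-675-5p: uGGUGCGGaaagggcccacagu

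By fraction of the span, peaks leaned towards the 3′ end of lncRNA genes, less than in coding genes. The strand was known from the start windows for 1038 entacapone and 691 vehicle peaks. Of these, 59.2% (exact 95% interval 56.2 to 62.3) of entacapone and 62.1% (58.3 to 65.7) of vehicle peaks lay in the 3′ part beyond the middle of the span, against 69.0% (68.4 to 69.6) and 71.1% (70.4 to 71.8) of peaks in protein-coding spans. The last 10% of the span held 21.1% and 20.8% of lncRNA peaks, and 35.5% and 36.7% of coding peaks. The first 10% held 14.3% and 11.7%, next to 13.2% and 11.7% in coding genes. Spans include introns and coding spans are longer, so these shares do not give positions on the mature RNA.

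**Figure D5:**
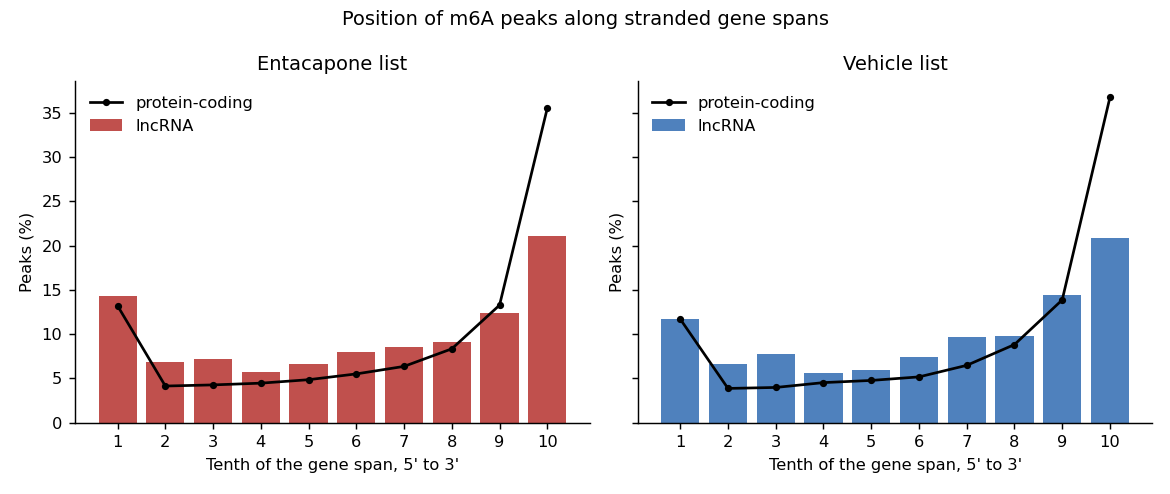
Share of peaks (y axis, %) in each of 10 equal parts of the gene span from 5′ to 3′ (x axis), for lncRNA peaks (bars) and protein-coding peaks (black line), entacapone list at left and vehicle list at right. The last part holds 21.1% and 20.8% of lncRNA peaks and 35.5% and 36.7% of coding peaks.

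Within 1 kb of the 3′ end lay 254 entacapone (24.5%, 21.9 to 27.2) and 171 vehicle peaks (24.7%, 21.6 to 28.1), and within 1 kb of the 5′ end 167 (16.1%, 13.9 to 18.5) and 102 (14.8%, 12.2 to 17.6). Of peaks in protein-coding spans, 17.25% and 17.66% lay within 1 kb of the 3′ end, and 10.99% and 9.32% within 1 kb of the 5′ end. By this distance lncRNA peaks were more often near either end than coding peaks, with intervals that do not meet. Coding spans are longer, so 1 kb is a smaller part of them. In the vehicle list, peaks in that list alone were within 1 kb of the 5′ end in 9.14% of cases (5.41 to 14.2) and shared ones in 16.8% (13.7 to 20.4). In the entacapone list these shares were 14.8% (11.9 to 18.1) and 17.4% (14.2 to 21.0). The intervals of shared peaks and of peaks in 1 list alone overlap in both lists.

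Many of the peaks lay close to a protein-coding gene. Within 5 kb of a protein-coding span were 417 entacapone (32.1%) and 297 vehicle lncRNA peaks (33.4%), although that zone makes up 7.88% of the lncRNA span outside coding genes. Per Mb, the zone held 30.0 entacapone and 21.4 vehicle peaks, the rest of the lncRNA span 5.44 and 3.64, and protein-coding spans 27.5 and 20.0. Where the strand of the coding gene was known, 275 entacapone and 196 vehicle peaks lay before its 5′ start and 62 and 47 beyond its 3′ end. Of those before the start, 223 and 153 lay in a lncRNA on the opposite strand and 20 and 19 in one on the same strand. The opposite-strand lncRNAs were not split into those starting outside the coding gene, called divergent, and those starting inside it. Of those beyond the 3′ end, 50 and 35 lay in a lncRNA on the opposite strand and 4 and 1 in one on the same strand. The peak lists do not give a strand, so which of the 2 overlapping or neighbouring transcripts carried a peak cannot be told apart. Sharing near coding genes was 52.8% (47.8 to 57.6) for entacapone and 73.1% (67.6 to 78.0) for vehicle peaks, and farther away 47.5% (44.2 to 50.9) and 71.5% (67.6 to 75.1), with overlapping intervals.

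By chromosome, lncRNA peaks made up the largest share of peaks on chromosome 17, 6.92% of entacapone and 5.82% of vehicle peaks there. Next came chromosome 12 in the entacapone list (5.97%) and, close behind, chromosome 6 in the vehicle list (5.79%). Airn lies on chromosome 17, and its part in that share was not tested. On chromosome 9 they made up 2.60% and 2.29%. Over all chromosomes the share was 4.08% (3.87 to 4.31) of the entacapone and 3.89% (3.64 to 4.15) of the vehicle list, with overlapping intervals. A further 1408 entacapone and 989 vehicle peaks lay in both a lncRNA and a protein-coding span and were left out by the rule. Of the peaks counted, 66 and 45 lay in several lncRNA spans and 31 and 26 also in the span of another gene type.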

How the data were processed

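Inputs and m6A immunoprecipitates of 1 entacapone and 1 vehicle tissue sample were used. Per the submitters' processing notes, TopHat2 2.1.1, MACS2 and mm10 were used; no peak threshold, counting tool or annotation is named in them. The deposited input values are raw read counts per gene and served only for library totals. Each deposited peak list holds a position and a number without a header, taken as the fold of IP over input that the authors' caller gave (a ratio), since every value is above 1. Coordinates are as deposited.

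Peaks were placed by midpoint in spans of RefSeq genes of GRCm38.p6 and compared at 1 bp overlap (Python 3.11.15, pandas 2.3.3, numpy 2.4.6, scipy 1.17.1). Shares carry exact (Clopper-Pearson) 95% intervals and medians order-statistic ones. Placement and overlap were tested on simulated peaks. Strand came from RefSeq start windows, which for 97.0% of lncRNA genes with one include a start at the end of the span.

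The planned input levels of lncRNAs were not computed, because the identifiers are not paired with names. Named genes are the 10 with most peaks, the 5 with most peaks in 1 list alone, those of the 6 largest folds and 5 widest peaks per list, and known lncRNAs with a peak; start windows, miRNA hosts, and the known lncRNAs named without a peak were chosen after their values were seen. The members and lists were chosen with earlier results of these data known. Alternatives are described at the end.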

Additional observations from a re-analysis of the deposited data

How the results depend on the processing

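Of 79 alternative values, 55 stayed within the margins (1.5 times for counts, the 95% interval for shares, medians and the ratio) and 24 moved. The entacapone list held more lncRNA peaks than the vehicle list in every setting. The ratio for all peaks was not recomputed in these settings, so whether the lncRNA ratio stayed above it is not known. The largest movers were filters that remove peaks by construction. A fold of at least 4 left 733 entacapone and 577 vehicle lncRNA peaks (ratio 1.27), with 34.0% and 43.5% shared and 8 entacapone peaks in Airn, against 11 in 4933406I18Rik, which then led. A width of at least 100 bp left 680 and 509 peaks (ratio 1.34) in 458 and 352 genes, with medians of 161 and 159 bp and 65.6% of vehicle peaks shared. Coding spans widened by 5 kb left 498 and 355 genes, with 592 vehicle peaks. Curated genes alone, an alternative chosen after seeing the data, gave 748 and 509 peaks in 412 and 314 genes. A reciprocal overlap of 50% gave 34.4% and 50.3% shared, and equal numbers of top-fold peaks gave 66.8% of vehicle peaks shared. A fold of at least 2 and the whole peak in the span moved none. The planned settings for input levels were not run. No paired analysis was possible because each treatment has 1 library of each kind. Depth limits how far a peak missing from a list can be read, and the depth of the IP libraries is not known.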
